A study of Mus musculus with 6 samples.

Results

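Chromatin accessibility was described at 9 genes of amino acid transport and serine synthesis in mouse haematopoietic stem cells (HSCs): Slc7a5, Slc3a2, Slc7a11, Asns, Psat1, Phgdh, Shmt2, Mthfd2 and Cth. The genes were chosen by name, and their regions by position: peaks from the 6 lists that shared at least 1 bp were joined into regions, and regions in a gene or within 50 kb of its RefSeq span were kept. This gave 86 of 82993 regions. A region is named here by its gene and a number that counts from the lowest coordinate at that locus. When the genes were chosen, a region near Slc7a5 and a region near Cth were already known to separate the groups by their calls. Those calls are therefore given as a description and support nothing by themselves.

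The assay was ATAC-seq, in which a transposase cuts and tags open DNA. Libraries came from wild-type C57BL/6J mice given tunicamycin at 2 mg per kg into the peritoneal cavity (3 libraries), or DMSO, its solvent, by the same route (3 libraries). Tunicamycin blocks N-linked glycosylation and loads the endoplasmic reticulum with misfolded protein. Each library was made from about 5000 cells sorted as CD48-CD150+LSK. The labels give neither the time between injection and sorting nor the age of the mice, and do not say whether replicates were separate animals, so spreads and p-values measure only the differences between these libraries.

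Cells short of amino acids, and cells under endoplasmic reticulum stress, phosphorylate the translation factor eIF2alpha, which favours translation of the transcription factor ATF4. ATF4 pairs with C/EBP proteins on short elements known as CARE and is known to activate genes of amino acid import, asparagine and serine synthesis and mitochondrial folate metabolism, which include the genes described here. SLC7A5 imports leucine and other large neutral amino acids and SLC7A11 imports cystine in exchange for glutamate, and both need SLC3A2 as their heavy chain at the cell surface. HSCs are known to keep protein synthesis low and to be sensitive to its disturbance.

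Promoter sequence bears on these loci because most of their start regions were accessible in both groups, as shown further on. The RefSeq promoter table of GRCm38.p6, the assembly that mm10 denotes, held 8 promoters of 7 of the 9 genes, each 250 bases before to 50 bases after a start and all on the minus strand. The core of the CARE element, searched as TGATGNAA on both strands, occurred in the promoters of Slc7a11 and Asns, and in 3.97% of 32851 promoters in the table. The antioxidant response element core TGACNNNGC, which NRF2 binds, occurred in the promoters of Asns and Phgdh and in 12.4% of all promoters. The promoters below are shown because they hold those matches, which stand in capitals, and that of Psat1 because its start region ranked highest of the 9 genes. They run 5′ to 3′ along the gene, from chr3:50443564-50443863 (Slc7a11), chr6:7693160-7693459 (Asns), chr3:98339920-98340219 (Phgdh) and chr19:15925010-15925309 (Psat1).
Slc7a11: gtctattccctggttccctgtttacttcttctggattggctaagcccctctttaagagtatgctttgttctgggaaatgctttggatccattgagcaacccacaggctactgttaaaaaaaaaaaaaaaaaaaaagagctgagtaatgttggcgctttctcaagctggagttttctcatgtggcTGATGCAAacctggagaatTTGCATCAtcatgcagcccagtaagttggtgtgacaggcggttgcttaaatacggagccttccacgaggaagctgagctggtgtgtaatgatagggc
Asns: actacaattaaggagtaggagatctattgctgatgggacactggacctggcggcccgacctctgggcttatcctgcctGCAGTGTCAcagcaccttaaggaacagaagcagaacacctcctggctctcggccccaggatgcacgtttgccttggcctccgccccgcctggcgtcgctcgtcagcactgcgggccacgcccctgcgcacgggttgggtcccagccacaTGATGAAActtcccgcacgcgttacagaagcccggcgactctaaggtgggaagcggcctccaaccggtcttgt
Phgdh: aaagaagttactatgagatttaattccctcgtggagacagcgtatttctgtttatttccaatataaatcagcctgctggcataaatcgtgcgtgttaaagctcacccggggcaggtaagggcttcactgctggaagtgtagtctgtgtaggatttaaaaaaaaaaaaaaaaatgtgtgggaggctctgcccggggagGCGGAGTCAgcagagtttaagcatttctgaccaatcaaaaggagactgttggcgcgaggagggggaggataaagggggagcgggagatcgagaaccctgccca
Psat1: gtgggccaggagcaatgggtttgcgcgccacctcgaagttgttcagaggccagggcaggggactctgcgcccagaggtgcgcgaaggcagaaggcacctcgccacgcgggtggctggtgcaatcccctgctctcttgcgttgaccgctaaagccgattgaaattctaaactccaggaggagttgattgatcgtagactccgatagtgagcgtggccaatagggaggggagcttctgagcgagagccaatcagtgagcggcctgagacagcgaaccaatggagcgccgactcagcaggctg

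In Slc7a11 the CARE core was present as an inverted pair, TGATGCAA at bases -66 to -59 from the start and the same letters on the opposite strand at -47 to -40. In Asns it was TGATGAAA at -23 to -16, and the antioxidant core lay farther out, on the opposite strand, at -172 to -164. The antioxidant core of Phgdh was on the opposite strand at -53 to -45. The promoter shown for Psat1 held none of these, but held CCAAT on the gene's own strand at -36 to -32, -6 to -2 and 24 to 28. CCAAT occurred in 4 of the 7 genes and in 37.4% of all promoters, and CCACG, which with CCAAT makes up the ER stress response element, in 5 of the 7 genes and in 32.8%. The letters TGACGTGG of the XBP1 and ATF6 element and TGACGTCA of the cyclic AMP response element, found in 0.676% and 1.79% of all promoters, were in none of the 8 windows. A match is a description of the letters and not a binding site.

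Peak summits, the points of highest signal, sat close to the CARE cores of Asns and Slc7a11 in most libraries. Only letters near a start were searched, and the distances were not set against those at other promoters. At Asns all 6 summits lay between 69 bases before the start and the start itself, which put them 4.5 to 49.5 bases from the middle of the CARE core. They lay 99 to 168 bases from the middle of the antioxidant core there. At Slc7a11 5 of 6 summits lay within 100 bases of both CARE cores, and that of tunicamycin 2 lay 252 bases downstream of the start. At Phgdh the 6 summits lay 9 to 31 bases after the start and 58 to 80 bases from the middle of its antioxidant core. At Psat1 they lay 43 to 60 bases after the start shown, and at Mthfd2 52 to 36 bases before it. In both groups the summits at these 5 starts thus lay within 69 bases of the start, apart from that of tunicamycin 2 at Slc7a11.

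Lists of peaks were long and unequal. They held 44952, 56865 and 47789 peaks in tunicamycin 1, 2 and 3, against 62478, 38217 and 28501 in DMSO 1, 2 and 3, and a library called 33.3% to 73.6% of all regions. DMSO 1 had the longest list and DMSO 3 the shortest. Peak lists carry no read depth, so a region without a call may still be open, and each comparison of calls was repeated with every list limited to its 28501 peaks of highest −log10 q, termed lists of one length. Marker genes of the sorted cells were checked by whether a region in the gene or within 1 kb was called in all 6 libraries, which held for 54.4% of protein-coding genes. This was so for 8 of 12 HSC markers, among them Hlf, Mecom, Procr and Kit, and not, for example, for Ly6a and Slamf1. Ly6a, which encodes Sca-1, had no region in the gene or within 1 kb. It was so for 5 of 5 markers of multipotent or lymphoid-primed progenitors, 4 of 5 of megakaryocytes, 2 of 6 of erythroid cells, 1 of 7 of neutrophils and monocytes, 1 of 4 of B cells, 0 of 4 of T and NK cells and 2 of 4 of stroma and endothelium.

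Across the 9 loci most regions that were strong were strong in every library. All 6 libraries called 32 of the 86 regions, or 37.2%, against 25.1% of all regions. These 32 regions had a median width of 783.5 bp and a median percentile of 76.1, where the percentile is the rank of a peak's fold enrichment among the peaks of its own list. The other 54 regions had a median width of 351 bp and a median percentile of 31.8. Of the 27 regions in one of the 9 genes, 12 were called in all 6 libraries, as were 16 of the 43 in another gene and 4 of the 16 outside any gene. Windows of 50 kb thus described neighbourhoods as much as genes, and exons and introns were not distinguished.

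**Figure D1:**
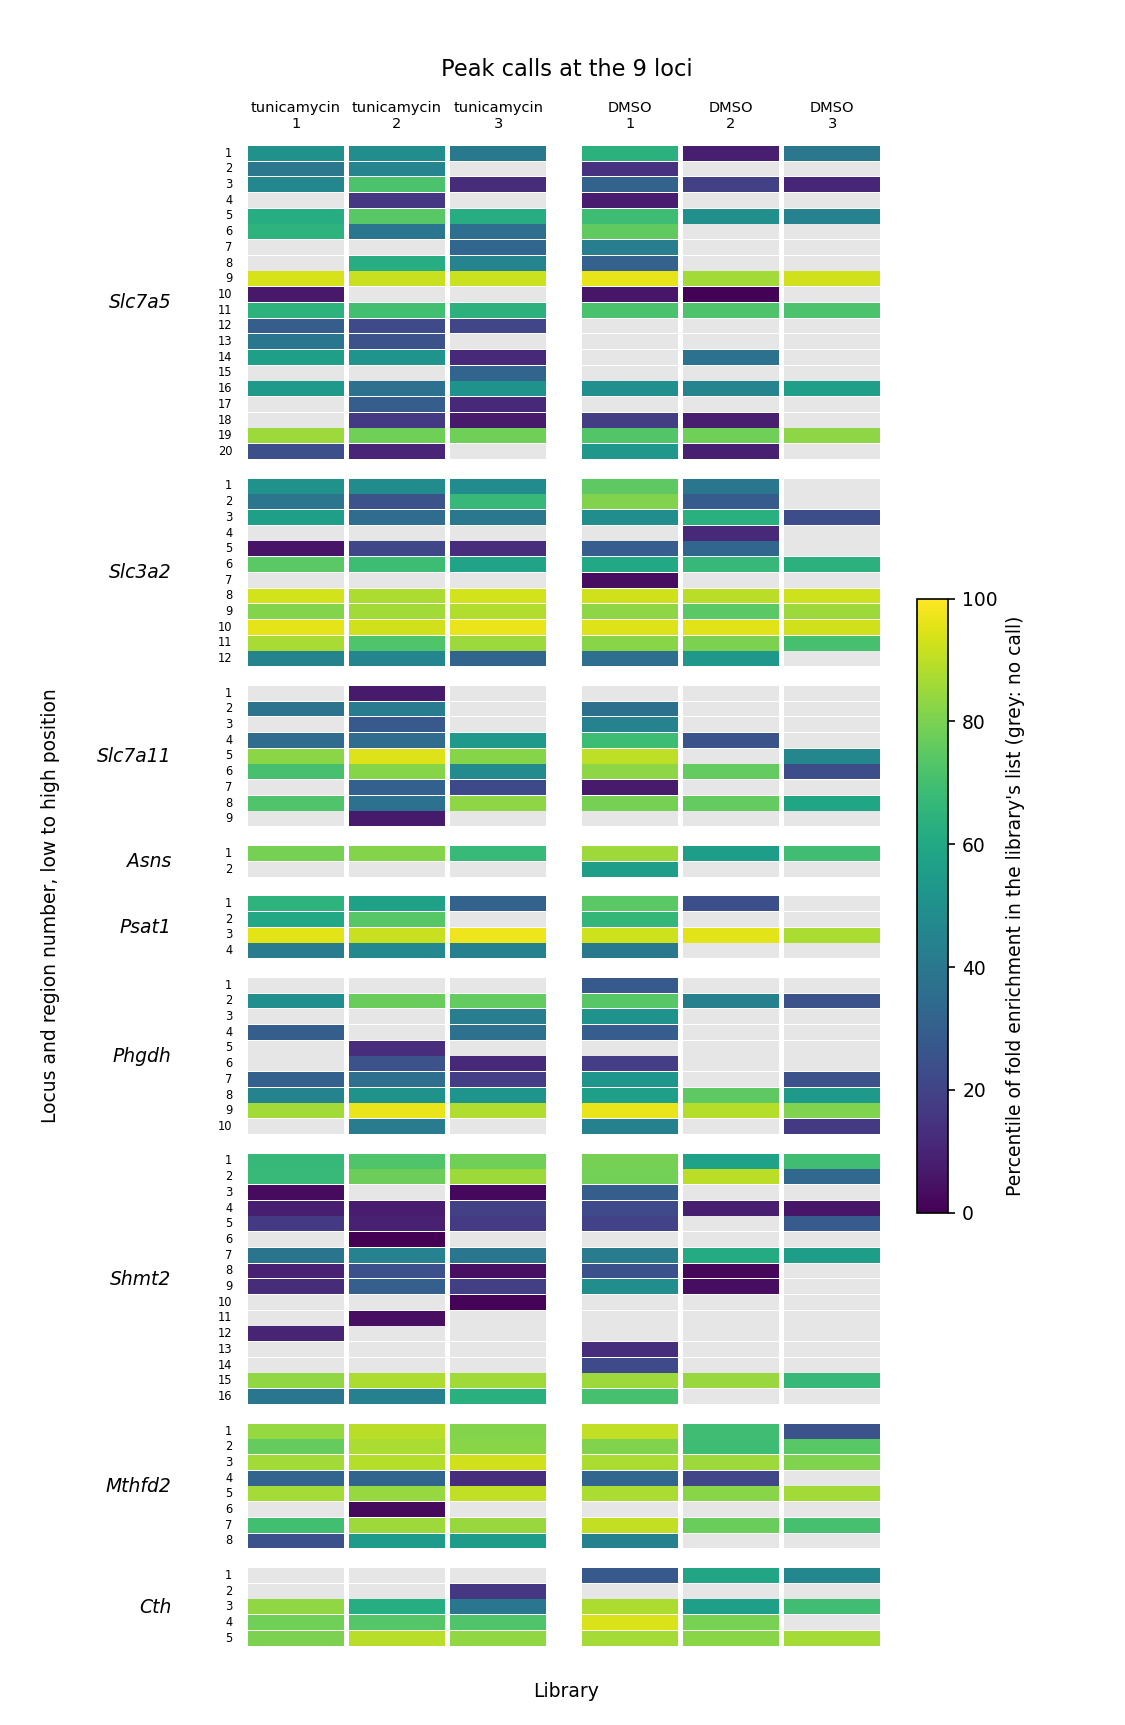
Peak calls at the 86 regions of the 9 loci, 1 row per region from the lowest to the highest coordinate of each locus, and 1 column per library, with tunicamycin libraries on the left and DMSO libraries on the right. Colour gives the percentile of fold enrichment in the library's own list and grey the absence of a call; bright rows run across all 6 libraries, and DMSO 2 and DMSO 3, with 48 and 37 regions called, have the most grey cells.

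Many of the calls that were not shared went with the lengths of the lists. In libraries of sorted cells in bulk, a region open in fewer cells and a region less open in each cell cannot be told apart. Of 13 regions called in 5 libraries, 10 were missing only in DMSO 3, or 11.6% of the 86 regions against 8.27% of all regions, and 3 were missing only in DMSO 2. None was missing only in a tunicamycin library or only in DMSO 1. A further 4 regions, 4.65% against 4.39% of all regions, were called by the 3 tunicamycin libraries and DMSO 1. More tunicamycin than DMSO libraries called 39 of the 86 regions, or 45.3%, against 39.4% of all regions, and fewer called 9, or 10.5%, against 22.3%. With lists of one length more tunicamycin than DMSO libraries called 13 of the 86 regions, against 11314 of all 82993 regions (13.6%). Fewer called 8 of the 86, against 11927 of all 82993 (14.4%). The other 65 of the 86 were equal, and 29 of them were called in neither group. Over the 86 regions together, the percent called minus the percent of all regions called did not overlap between groups as deposited. It was 17.1, 14.2 and 17.6 points in tunicamycin 1, 2 and 3, against 8.94, 11.3 and 9.73 in DMSO 1, 2 and 3. With lists of one length it overlapped, at 18.5, 12.5 and 17.4 against 18.3, 10.6 and 9.73 points. The regions known to separate the groups are among the 86, and no test was made.

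Slc7a5 had 20 regions in its window, the most of the 9 genes, and tunicamycin libraries called more of them than DMSO libraries did, once the length of each list was allowed for. They called 14, 17 and 15 of the 20 in tunicamycin 1, 2 and 3, against 15, 11 and 7 in DMSO 1, 2 and 3. To allow for list length, the percent of all regions that a library called was subtracted from the percent it called at a locus, and the result is termed the locus share. At Slc7a5 it was 17.4, 17.8 and 19.3 percentage points in the tunicamycin libraries, against 1.38, 10.4 and 1.71 points in the DMSO libraries. The 3 tunicamycin libraries lay close together and above every DMSO library. Means were 18.2 ± 1.04 and 4.52 ± 5.14 points (SD, n = 3 each), a difference of 13.6 points.

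The same held at Slc7a5 with lists of one length, where the locus share was 21.2, 16.0 and 16.2 points in the tunicamycin libraries against 5.98, 6.40 and 1.71 points in the DMSO libraries. Means were then 17.8 ± 2.95 and 4.70 ± 2.60 points, a difference of 13.1 points. Over regions called in at least 2 libraries the difference was 8.03 points, again without overlap. Groups that did not overlap in this direction were found at 4.81% of 18892 protein-coding loci as deposited and at 3.76% with lists of one length. No test was made of this difference, since an exact permutation test of 3 against 3 libraries cannot go below p = 0.10. Marker lists also differed between groups: the locus share over the 16 regions of the 4 B cell markers ran from -11.0 to 9.86 points in tunicamycin libraries and from -29.9 to -25.8 points in DMSO libraries. Over the 118 regions of the HSC markers it ran from -9.05 to -2.82 points with tunicamycin and from -6.17 to 6.04 points with DMSO, and whether such differences have a part in the result at Slc7a5 was not tested.

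Calls in tunicamycin libraries alone lay just above Slc7a5 in coordinate. Region 12, at chr8:121911413-121911755, 343 bp wide and 3.73 kb from the gene's upper end, was called by all 3 tunicamycin libraries and by no DMSO library. It lay in the long non-coding gene BC048644. Its fold enrichments over background, the authors' own values, were 4.49, 4.11 and 4.25 in tunicamycin 1, 2 and 3, at percentiles of 29.6, 22.3 and 20.8. These were weak peaks of each list, yet the region was also called in 3 tunicamycin and 0 DMSO lists of one length. It was the only such region among the 86 (5 without DMSO 1, and 2 without tunicamycin 1, tunicamycin 3 or DMSO 2), and 0.683% of all regions, or 4.88% of protein-coding genes within 50 kb, had that pattern.

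Beside it, 3 regions were also called in tunicamycin libraries alone: region 13 in tunicamycin 1 and 2, region 15 in tunicamycin 3 and region 17 in tunicamycin 2 and 3. The stretch from region 12 to region 17, chosen after its calls were seen, spanned 3.73 to 26.9 kb above the gene, in BC048644 and in the carbonic anhydrase gene Car5a. Tunicamycin 1, 2 and 3 called 4, 5 and 5 of its 6 regions, against 1, 2 and 1 in DMSO 1, 2 and 3. Over the 11 regions in and below the gene the counts were 8, 9 and 8 in the tunicamycin libraries, against 11, 6 and 5 in the DMSO libraries. DMSO 1, which had the longest list, thus called every region below and in Slc7a5 and 1 of 6 in the stretch above it. Farther out, over the 3 regions at 40.0 to 48.1 kb, the counts were 2, 3 and 2 in the tunicamycin libraries, against 3, 3 and 1 in the DMSO libraries. Without region 12 the difference in locus share at Slc7a5 was 9.52 points and the groups still did not overlap.

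**Figure D2:**
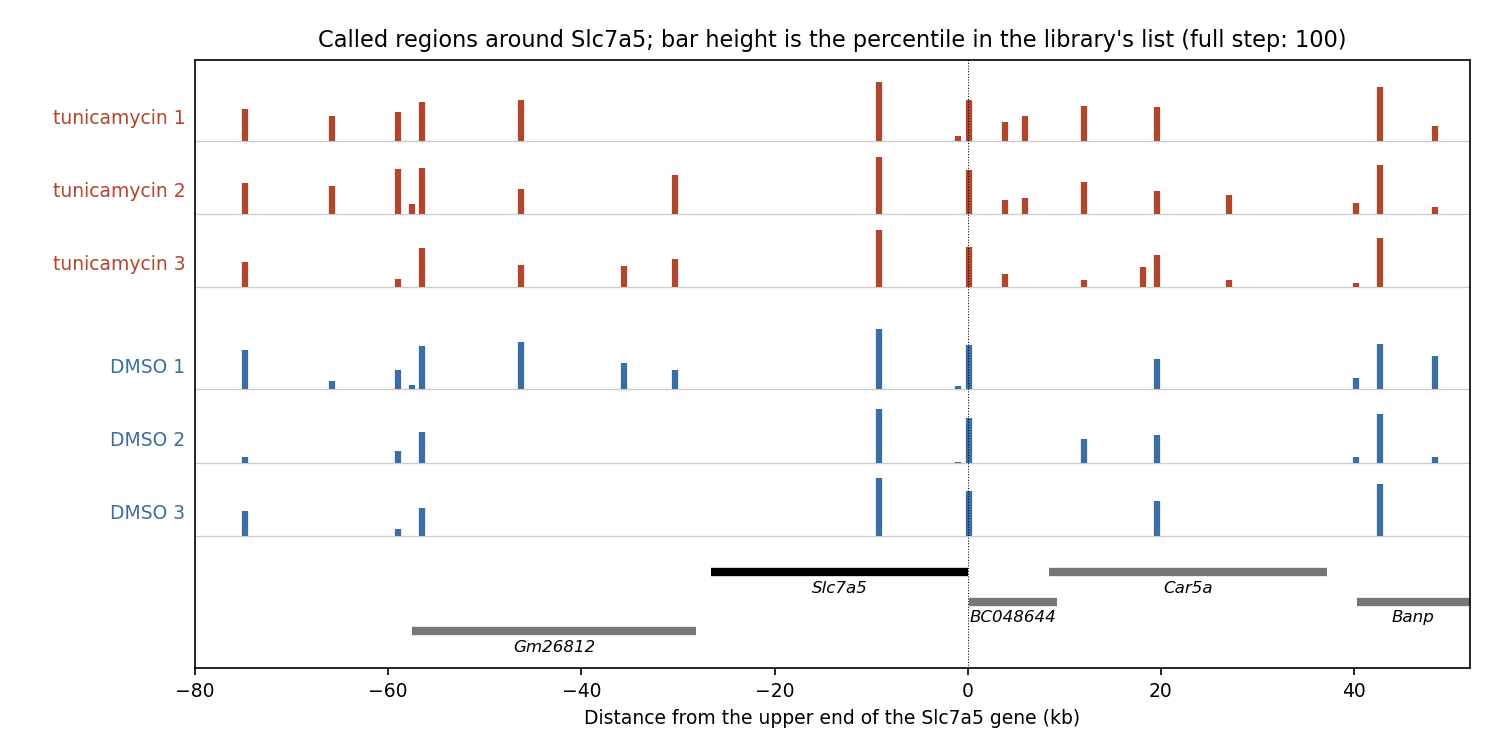
Regions called around Slc7a5 in each library, by distance in kb from the upper end of the gene, with tunicamycin libraries above DMSO libraries and annotated genes below. Bar height is the percentile of fold enrichment in the library's own list (a full step is 100); bars between 3.73 and 26.9 kb number 4, 5 and 5 in the tunicamycin libraries, against 1, 2 and 1 in the DMSO libraries.

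The strong regions of Slc7a5 were shared. Region 9, inside the gene at chr8:121898168-121898911, was at percentiles of 94.0, 91.6 and 92.0 in tunicamycin 1, 2 and 3, against 96.4, 86.0 and 92.7 in DMSO 1, 2 and 3. Region 11, at chr8:121907444-121908202, covered the gene's upper end and the start of BC048644. It was at percentiles of 64.4, 69.5 and 63.9 in the tunicamycin libraries, against 71.2, 71.9 and 71.8 in the DMSO libraries. On that scale every tunicamycin library was below every DMSO library, but lists of unequal length set the scale.

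Ranks were therefore also taken over the 20810 regions that all 6 libraries called, which gives every library the same number of regions, and are termed shared percentiles. Region 11 of Slc7a5 had shared percentiles of 34.3, 33.4 and 32.2 in the tunicamycin libraries, against 34.3, 51.5 and 61.8 in the DMSO libraries. The groups then overlapped, with DMSO 1 among the tunicamycin libraries. Region 3, outside any gene, had the largest difference upward at this locus, 18.6 ± 17.1 and 5.49 ± 0.545 (SD, n = 3 each), but tunicamycin 3 lay below every DMSO library.

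Slc3a2, the heavy chain shared by SLC7A5 and SLC7A11, lay in a gene-dense window of 12 regions. Tunicamycin 1, 2 and 3 each called 10 of them, against 11, 11 and 6 in DMSO 1, 2 and 3, and 4 of the 12 were missing only in DMSO 3. The locus share differed by -2.47 points and the groups overlapped. Its sign was not stable: the difference ran from -7.76 points without DMSO 3 to 7.45 points without DMSO 2, and was 1.89 points without tunicamycin 2. Strong regions there lay at the starts of other genes: region 10 at Stx5a, region 9 at Wdr74 and region 11 at Nxf1. Their shared percentile differences were -0.41, 3.27 and -0.54. Region 8 covered both the start of the small nucleolar RNA host gene Snhg1 and the upper end of Slc3a2. That end is the 5′ end of the annotated span, since Slc3a2 lies on the minus strand. Region 8 was at percentiles of 93.2, 87.6 and 93.0 in tunicamycin 1, 2 and 3, against 92.6, 89.8 and 92.5 in DMSO 1, 2 and 3. Its shared percentile difference was -4.16, with overlap.

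The start of Slc3a2 in the promoter table lies inside the gene's span, in region 6 at chr19:8712812-8714293. Region 6 was at percentiles of 74.6, 68.7 and 58.1 in the tunicamycin libraries, against 59.9, 67.0 and 63.8 in the DMSO libraries. The values of DMSO 2 and DMSO 3 are those of the highest peak of the region. The peak over the start itself was at percentiles of 24.2 and 42.1 in DMSO 2 and DMSO 3, below the peak over the start in every tunicamycin library. Those tunicamycin peaks were wide and had their summits farther into the gene, so these values do not compare the signal at the start. DMSO 1 lay within the tunicamycin range on both readings, and by the highest peak of the region the groups overlapped. The shape of the call differed between libraries: the peak over the start was 1160, 1195 and 1469 bp wide in tunicamycin 1, 2 and 3 and 1430 bp in DMSO 1, but 268 and 244 bp in DMSO 2 and DMSO 3. In DMSO 2 and DMSO 3 its summit lay 6 and 27 bases after the start, and in the other 4 libraries 480 to 864 bases after it. Region 3, outside any gene, was at percentiles of 56.2, 34.9 and 40.0 in the tunicamycin libraries, against 48.7, 63.4 and 23.4 in the DMSO libraries, with overlap. It had the largest difference in shared percentile at the locus, -7.51, with 14.3 ± 9.67 in tunicamycin and 21.8 ± 15.5 in DMSO libraries.

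Slc7a11, the cystine transporter, had 9 regions, 8 of them within its 134152 bp span. Calls varied more between libraries here than between groups: tunicamycin 1, 2 and 3 called 5, 9 and 5, against 7, 3 and 3 in DMSO 1, 2 and 3. The locus share differed by 14.2 points as deposited and by -0.24 points with lists of one length, and the groups overlapped both ways. Without tunicamycin 2 the difference as deposited was 3.74 points. Regions 1 and 9 were called by tunicamycin 2 alone. The start region, region 8 at chr3:50443293-50444392, was at percentiles of 72.5, 37.3 and 83.1 in the tunicamycin libraries, against 78.9, 76.1 and 59.1 in the DMSO libraries. Tunicamycin 2 stood apart in rank, as it did in the position of its summit. The mean shared percentiles of region 8 were 38.5 ± 28.8 and 50.4 ± 6.56, a difference of -11.9.

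Asns, which makes asparagine from aspartate and glutamine, had the emptiest window, with 2 regions. The start region, at chr6:7692607-7693492, was called in all 6 libraries, at percentiles of 79.0, 81.3 and 67.3 in tunicamycin 1, 2 and 3, against 85.5, 55.2 and 69.1 in DMSO 1, 2 and 3. The groups overlapped, and mean shared percentiles were 49.0 ± 11.0 and 49.8 ± 17.2, a difference of -0.83. Region 2, 39.9 kb above the gene, was called by DMSO 1 alone. The locus share was lower in every tunicamycin than in every DMSO library, with a difference of -24.7 points, a pattern at 7.12% of loci, but it rested on these 2 regions. Every library but DMSO 1 called the same 1 of the 2. Among those libraries the shares thus differed only by the subtracted percent of all regions called, and not by calls at Asns. With lists of one length each library called 1 of the 2 and the groups overlapped, where 5.93% of loci had that pattern.

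Serine synthesis from glycolysis runs through PHGDH, the first enzyme, and PSAT1, the transaminase after it. Psat1 had the highest start region of the 9 genes. This region, at chr19:15924320-15925489, was at percentiles of 95.3, 91.5 and 97.3 in tunicamycin 1, 2 and 3, against 92.3, 95.6 and 87.2 in DMSO 1, 2 and 3, so the groups overlapped at the top of every list. Mean shared percentiles were 87.1 ± 8.55 and 84.2 ± 7.05. Counting its 3 weaker regions, libraries called 4, 4 and 3 of the 4 Psat1 regions with tunicamycin, against 4, 2 and 1 with DMSO. The locus share differed by 25.3 points as deposited and by 16.4 points with lists of one length, and the groups overlapped both ways. Without tunicamycin 3 or DMSO 1 the groups did not overlap, with differences of 32.2 and 34.6 points.

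Phgdh had the widest difference in rank of any start region of the 9 genes. Its start region, region 8 at chr3:98339068-98340125, was at percentiles of 44.6, 51.1 and 51.8 in the tunicamycin libraries, against 56.1, 75.2 and 54.3 in the DMSO libraries, every tunicamycin library being below every DMSO library. Shared percentiles were 15.6, 14.6 and 19.7 with tunicamycin, against 17.3, 56.5 and 40.4 with DMSO. The groups overlapped on this scale, because DMSO 1 lay between tunicamycin libraries. Means were 16.6 ± 2.69 and 38.1 ± 19.7, a difference of -21.4. In limma's moderated test on normal scores of the ranks, the difference was -0.63 with a standard error of 0.33, with an unadjusted p of 0.0759 and an adjusted p of 0.996.

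A stronger region of the Phgdh window, region 9, lay 8.02 kb above the gene, outside any gene, at percentiles of 86.1, 96.5 and 88.0 in the tunicamycin libraries and 96.6, 88.8 and 80.8 in the DMSO libraries. Libraries called 5, 7 and 7 of the 10 Phgdh regions with tunicamycin, against 9, 3 and 5 with DMSO, and the locus share differed by -1.36 points, with overlap. The sign of this difference was not stable: it was -11.7 points without DMSO 2, where the groups did not overlap, 2.38 to 3.91 points without tunicamycin 1, DMSO 1 or DMSO 3, and 14.2 points within 10 kb.

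Shmt2 and Mthfd2 act in mitochondria, where SHMT2 turns serine into glycine and hands its carbon to folate, and MTHFD2 oxidises the loaded folate. Their start regions ranked far apart. That of Mthfd2, at chr6:83316895-83317828, was at percentiles of 86.3, 89.0 and 92.9 in tunicamycin 1, 2 and 3, against 87.5, 85.3 and 80.7 in DMSO 1, 2 and 3, with overlap between groups. That of Shmt2, at chr10:127521651-127522533, was the weakest, at 9.32, 24.2 and 3.93 in the tunicamycin libraries and at 24.9 and 1.75 in DMSO 1 and DMSO 2, and it was not called in DMSO 3. It was the only start region of the 9 that was not called in every library.

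Mthfd2 was the other locus at which every tunicamycin library had a higher locus share than every DMSO library, with lists as deposited. Libraries called 7, 8 and 7 of its 8 regions with tunicamycin, against 7, 6 and 5 with DMSO, and the shares were 34.9, 32.8 and 31.8 points with tunicamycin, against 13.9, 30.4 and 29.2 points with DMSO. The gap between the nearest libraries was small beside that between DMSO libraries. With lists of one length the groups overlapped, and the difference was 8.10 points. It was 3.33 points without DMSO 1, still without overlap, and 1.27 points with overlap over regions of at least 2 libraries. Region 1 of this window, in the bicarbonate transporter gene Slc4a5, had the largest upward difference in rank of all 32 shared regions, 66.5 ± 6.29 with tunicamycin and 45.2 ± 29.8 with DMSO. Its percentiles were 84.2, 89.5 and 81.6 in tunicamycin 1, 2 and 3, against 90.6, 69.4 and 25.2 in DMSO 1, 2 and 3, and DMSO 3 stood apart from the other 5 libraries.

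Shmt2 had 16 regions, of which 6 were called by a single library. Tunicamycin 1, 2 and 3 called 11 each, against 12, 7 and 6 in DMSO 1, 2 and 3, and the locus share differed by 8.64 points as deposited and by -2.32 points with lists of one length, with overlap both ways. Without tunicamycin 2 or DMSO 3 the groups did not overlap, with differences of 13.0 and 9.95 points. Region 7, in Ndufa4l2, which encodes a mitochondrial protein, was at percentiles of 38.3, 44.3 and 39.4 in the tunicamycin libraries, against 41.5, 61.2 and 55.4 in the DMSO libraries. It had mean shared percentiles of 11.1 ± 0.857 with tunicamycin and 29.0 ± 18.1 with DMSO, a difference of -17.9 with overlap.

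Cth, which splits cystathionine to release cysteine, had 5 regions and the reverse of the call pattern at Slc7a5. Region 1, at chr3:157876842-157877114, 273 bp wide, 17.1 kb below the gene and outside any gene, was called by all 3 DMSO libraries and by no tunicamycin library. Its fold enrichments were 4.70, 5.98 and 5.06 in DMSO 1, 2 and 3, at percentiles of 27.6, 58.9 and 46.4. This pattern held for 0.0976% of all regions and, within 50 kb, 0.608% of protein-coding genes. With lists of one length 0 tunicamycin and 2 DMSO libraries called it. The rest of the locus did not follow: libraries called 3, 3 and 4 of the 5 Cth regions with tunicamycin, against 4, 4 and 3 with DMSO, and the locus share, different by -14.7 points, overlapped. It was lower in every tunicamycin library without DMSO 1 (-22.9 points), with peaks of −log10 q of at least 5 (-19.7) and over regions of at least 2 libraries (-29.7). It differed by -7.00 points without tunicamycin 2 and by -8.39 points without DMSO 2, with overlap, and by 8.64 points within 10 kb.

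Region 3 of Cth, at chr3:157924798-157925447, lay at the gene's upper end, shared with the start of the long non-coding gene 1810013D15Rik. It was at percentiles of 83.3, 61.9 and 39.1 in the tunicamycin libraries, against 87.5, 56.2 and 69.2 in the DMSO libraries. The tunicamycin libraries spread more widely than the groups differed, with mean shared percentiles of 33.3 ± 28.2 and 51.9 ± 18.3.

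**Figure D3:**
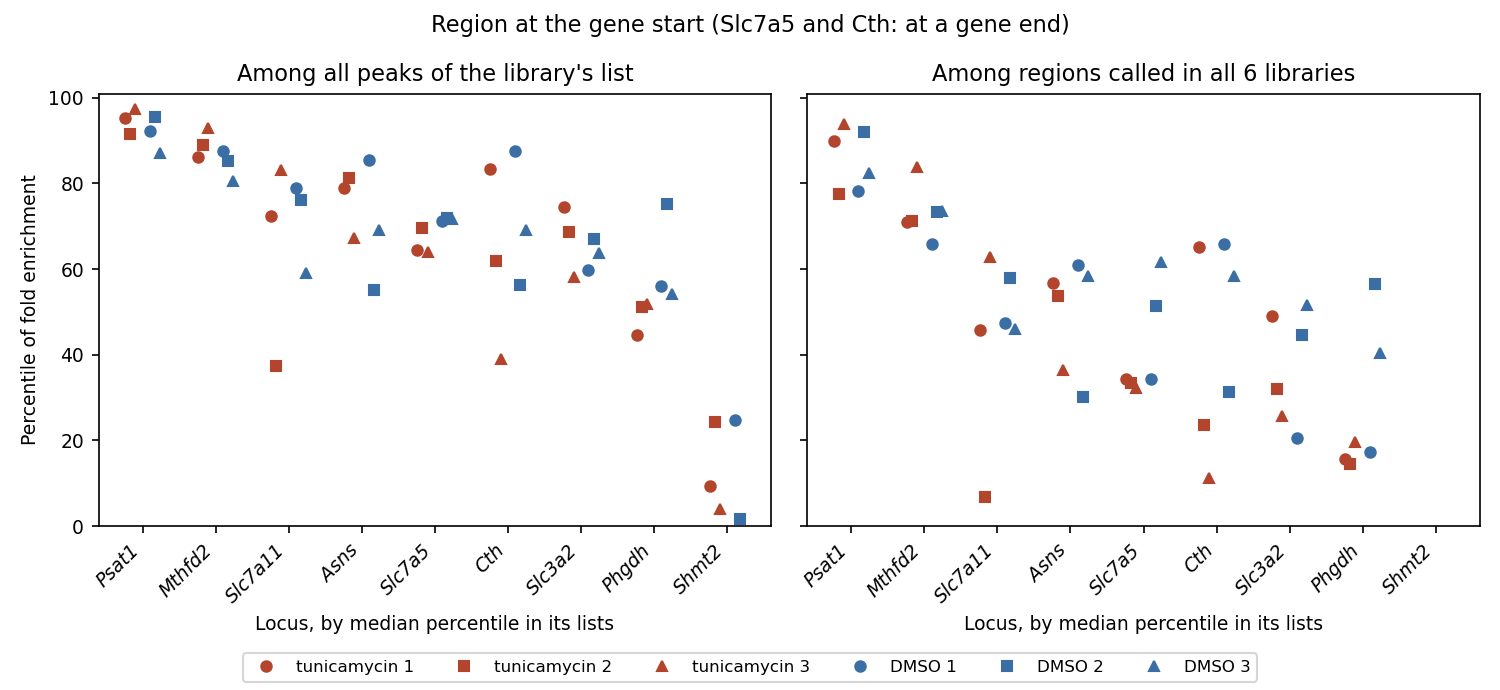
Percentile of fold enrichment of the region at each gene's start, or for Slc7a5 and Cth at a gene end, among all peaks of the library's list (left) and among the 20810 regions called in all 6 libraries (right), 1 point per library with tunicamycin left of DMSO. Genes run from the highest median percentile, 93.8 for Psat1, to the lowest, 9.32 for Shmt2, which has no points on the right because DMSO 3 did not call it; on the right the groups overlap at each of the other 8 genes.

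Ordered by the median percentile of their start or end regions over the libraries, the genes were Psat1 (93.8), Mthfd2 (86.9), Slc7a11 (74.3), Asns (74.1), Slc7a5 (70.4), Cth (65.6), Slc3a2 (65.4), Phgdh (53.0) and Shmt2 (9.32). The starts used were those of the promoter table, and the spans of Slc3a2, Slc7a11 and Mthfd2 reach farther upstream. Neighbours in this order overlapped in their ranges over libraries, with the exception of Phgdh and Shmt2. Mean shared percentiles were higher with tunicamycin at 2 of the 8 genes with a value, Psat1 and Mthfd2, and lower at 6. The groups overlapped at all 8.

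No rank difference at the 9 loci passed the test. The groups did not overlap in shared percentile at 0 of the 32 regions, against 4.66% of the 20810 regions with tunicamycin higher and 4.55% with tunicamycin lower. Differences at the 32 ran from -21.4 to 21.3 with a median of -2.03, and over all 20810 regions the median was -0.304 and the central 95% ran from -20.1 to 22.3. In limma, fitted over all 20810 regions with Benjamini-Hochberg adjustment over all of them, 0 of 32 regions had an adjusted p under 0.05, against 0% of all regions, and the smallest adjusted p was 0.996. At an unadjusted p under 0.05 there were also 0 of 32, against 4.35% of all regions. With 3 libraries a group, a p that misses the threshold does not show equal accessibility.

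**Figure D4:**
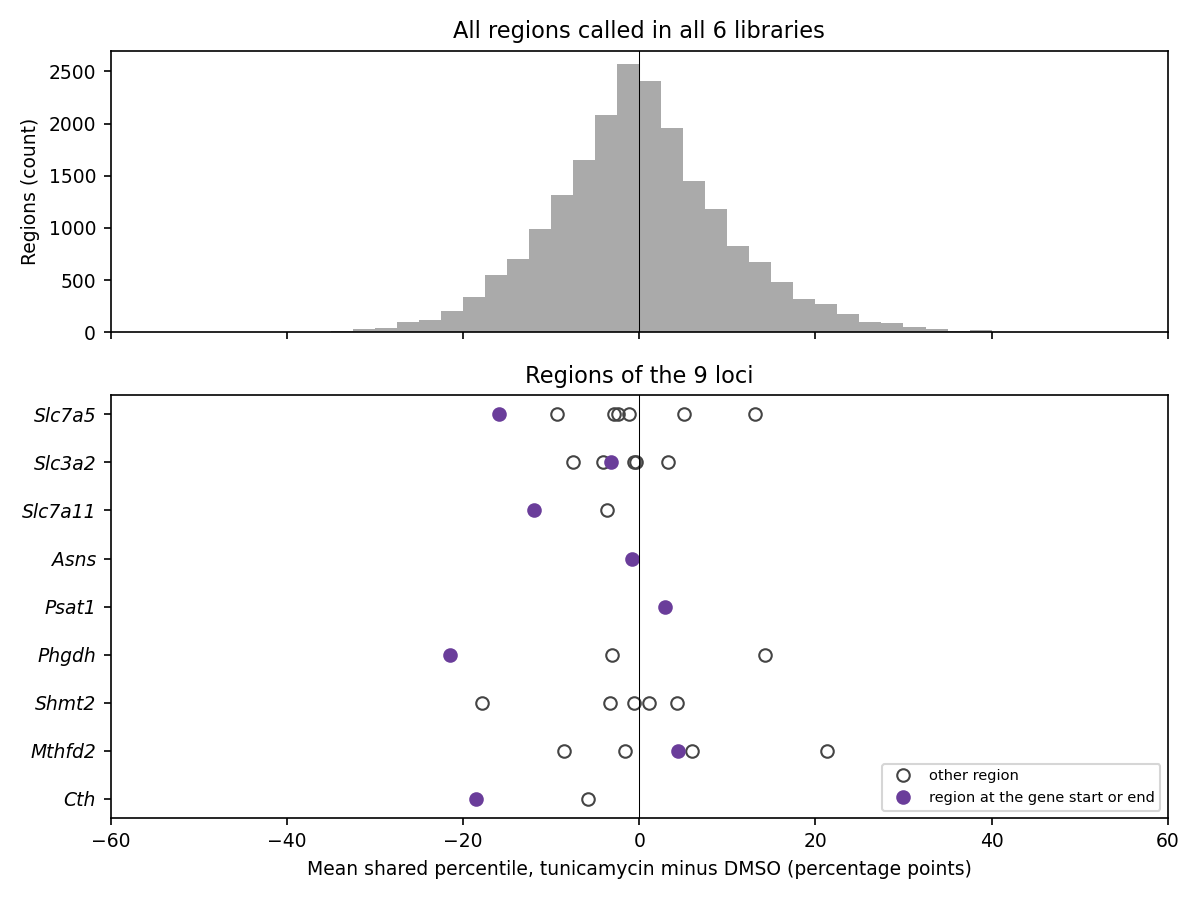
Mean shared percentile with tunicamycin minus that with DMSO, in percentage points, for all 20810 regions called in all 6 libraries (top, histogram) and for the 32 such regions of the 9 loci (bottom, 1 point per region, filled at the gene start or end). The 32 points lie between -21.4 and 21.3 and fall on both sides of 0; the central 95% of all regions runs from -20.1 to 22.3, and the lowest point, the start region of Phgdh, is below it.

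The 9 loci did not move in a common direction. As deposited, the locus share was higher in every tunicamycin library at 2 of 9 (Slc7a5 and Mthfd2), lower at 1 (Asns) and overlapped at 6, where 4.81% of all loci were higher and 7.12% lower. With lists of one length it was higher at Slc7a5 and overlapped at the other 8, where 3.76% of all loci were higher and 5.93% lower. The median difference over the 9 loci was 8.64 points as deposited, against -0.616 over 18892 loci, and -0.238 points with lists of one length, the same as over all loci.

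**Figure D5:**
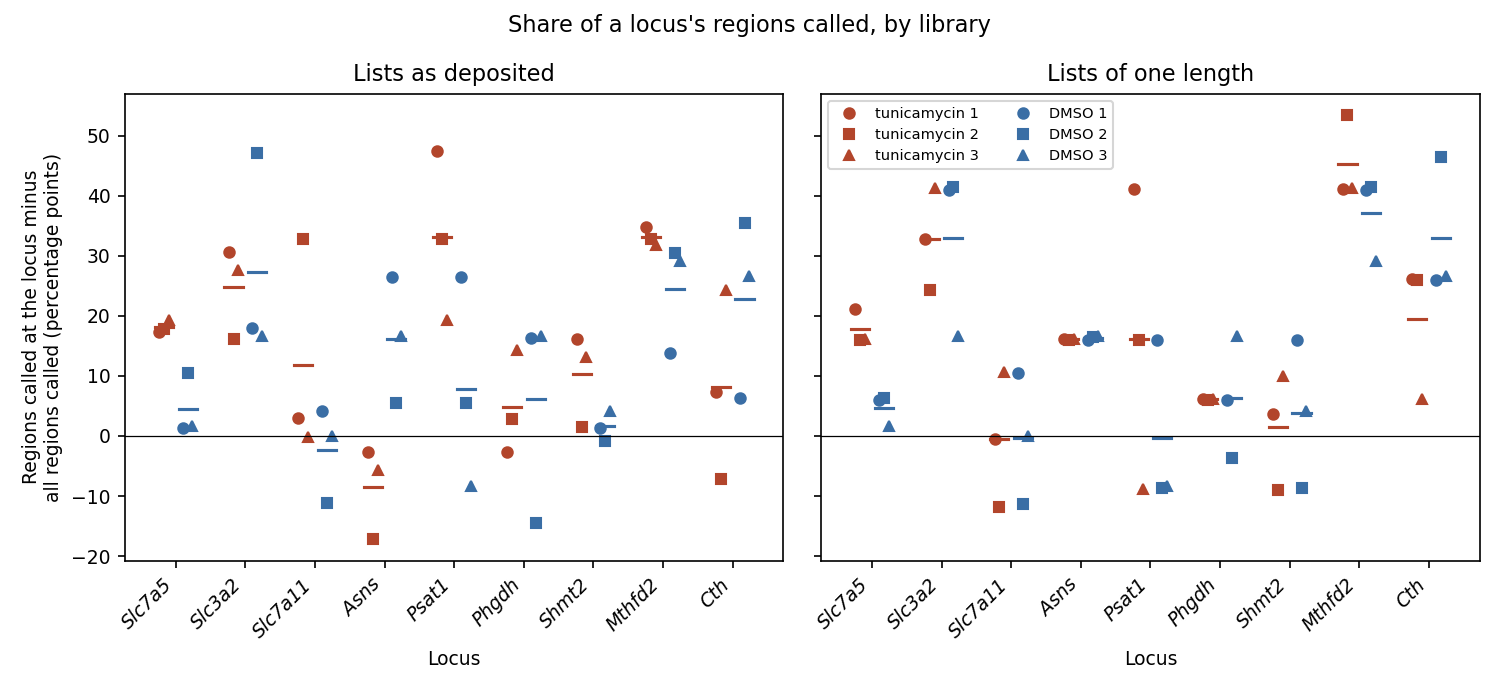
Locus share, the percent of a locus's regions that a library called minus the percent of all regions it called, for the 9 loci with lists as deposited (left) and of one length (right). Points are libraries, tunicamycin left of DMSO, and bars are group means; at Slc7a5 the 3 tunicamycin points lie above the 3 DMSO points in both panels, with means of 18.2 against 4.52 points on the left and 17.8 against 4.70 points on the right.

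The wider pathway was described by 6 lists of 89 further genes, all of them matched to the annotation. A region in the gene or within 1 kb was called in all 6 libraries at 73 of the 89, against 54.4% of protein-coding genes, and at 8 of the 9 genes above, Shmt2 being the exception. All 20 cytosolic tRNA synthetases and all 13 genes of amino acid and stress sensing, such as Atf4 and the eIF2alpha kinase genes Eif2ak3 and Eif2ak4, had such a region. So had 14 of 21 amino acid transporters, 11 of 15 other enzymes of serine, glycine and one-carbon metabolism, 5 of 9 of transsulfuration and glutathione, and 10 of 11 of glutamate, aspartate, proline and branched-chain metabolism.

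A region called by the 3 tunicamycin libraries and no DMSO library lay within 50 kb of 3 of the 89 genes, against 4.88% of protein-coding genes. It was 25.8 kb from the folate enzyme gene Mthfd1, 47.2 kb from the stress-induced factor gene Atf5 and 11.9 kb from Ddit4, an inhibitor of mTORC1. The reverse was found near 1, the folate enzyme gene Aldh1l1, 8.05 kb away, against 0.608% of protein-coding genes. Locus shares did not overlap at 5 of the 89, which are named after their values were seen: 2 were higher, against 4.81% of all loci, and 3 lower, against 7.12%. Tunicamycin was higher at Sesn2 and Eif2s1, with differences of 12.0 and 16.2 points, and lower at Aldh1l1, Glul and Ddit3, with differences of -10.2, -26.5 and -12.2 points.

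At the gene ends, shared percentiles did not overlap at 5 of 68 genes with such a region, where the region with the largest difference at either end was taken. Tunicamycin was higher at 3 and lower at 2, and by the same rule it was higher at 4.33% and lower at 4.46% of 9965 protein-coding genes. Chac1, whose product breaks down glutathione and which ATF4 and CHOP are known to induce, had shared percentiles of 48.8, 47.1 and 50.3 in tunicamycin 1, 2 and 3, against 24.9, 10.3 and 11.8 in DMSO 1, 2 and 3. That was the largest difference in the lists, 33.0 points, and its unadjusted p in limma was 0.00432 with an adjusted p of 0.996. The locus share at Chac1 went the other way, by -13.2 points with overlap. Gsr, the glutathione reductase gene, differed by 25.9 points, with means of 51.9 ± 10.7 and 26.0 ± 8.26. Dars, a tRNA synthetase gene, differed by 12.2 points, Ahcy by -13.0 and the glycine transporter gene Slc6a9 by -3.94. Among the others the widest differences with overlap were 21.1 points at Aars and -20.8 at Sars, and no gene of the lists passed the adjusted test. At Aars DMSO 3, at 22.1, stood apart from the other libraries, which ran from 80.1 to 93.5.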

How the data were processed

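ATAC-seq peak lists of 6 HSC libraries were used, 1 list per library, so that peaks had been called by library. Each list as the authors deposited it holds a position and summit per peak, and the authors' fold enrichment, which is a ratio over background, with a −log10 p-value, −log10 q-value and display score. The submitters' processing notes list Bowtie2 2.2.9, MACS2, Picard, featureCounts, Trim Galore 0.4.4 and the build mm10, without roles or settings. The calling threshold, read filters and any shift of read ends are likewise not given in the sources used. The largest deposited q-value was 0.0482 to 0.05 per list.

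The autosomes 1 to 19, X and Y were used, so that 109 to 138 peaks of each list were not. The fold of a library at a region was that of its highest peak there. Gene spans and promoters came from RefSeq for GRCm38.p6, and promoters gave strand and start. Without a promoter entry (Slc7a5, Cth), the region within 1 kb of a gene end called by most libraries was taken. Ranks over shared regions were turned into normal scores and compared with limma 3.58.1 in R 4.3.3, with no covariates, after tests on simulated data. Other steps used matplotlib 3.10.9, SciPy 1.17.1, pandas 2.3.3 and NumPy 2.4.6 under Python 3.11.15.

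Regions shown in full were those at a start or end, those separating the groups and the largest rank difference of each locus. List genes were named for a separated region nearby, or among the 4 widest rank differences of a list. Others, such as Slc6a9, were named after their values were seen, because the groups did not overlap in locus share or at a gene end. A few were named as examples of genes with a region called in all 6 libraries. Members, lists and tests were chosen with earlier results of these data known. Alternatives were peaks with −log10 q of at least 5 (q at most 1e-05), lists of one length, distances of 10 and 100 kb, calls covering 50% of a region, windows of 250 bp around summits, regions of at least 2 libraries, ranks by −log10 q, library weights, a replicate block, and each library left out.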

Additional observations from a re-analysis of the deposited data

How the results depend on the processing

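Slc7a5 was the locus whose share was higher in every tunicamycin library under each alternative run, with a difference of 8.03 to 20.4 points (12.1 to 16.6 without 1 library). Region 12, known to separate the groups when the genes were chosen, counts in these shares. The alternatives thus repeat a description of the same lists and are no independent support for it. Region 12 was left out only with lists as deposited (9.52 points). The count of loci with that pattern, 2 as deposited, was 1 (Slc7a5) with peaks of −log10 q of at least 5, lists of one length, a distance of 100 kb or regions of at least 2 libraries, 2 at 10 kb (Slc7a5 and Shmt2 in place of Mthfd2), and 2 to 3 without 1 library. Loci with the reverse, 1 as deposited (Asns), numbered 2 at −log10 q of at least 5 (with Cth), 0 with lists of one length, at 10 kb, at 100 kb and with 50% cover, 1 with regions of at least 2 libraries (Cth in place of Asns, which was at -13.0 points with overlap), and 1 to 2 without 1 library. Regions called in all 6 libraries, 32 at the 9 loci, numbered 15 of 41 at 10 kb, 17 with 50% cover and 32 to 42 without 1 library. Tunicamycin-only regions, 1 as deposited, numbered 2 with 50% cover and 2 with summit windows, and 1 to 5 without 1 library, with 5 when DMSO 1, the longest list, was left out and 2 without tunicamycin 1, tunicamycin 3 or DMSO 2. DMSO-only regions, 1 as deposited, numbered 0 with lists of one length and 0 at 10 kb, and 1 without any 1 library. The distance and cover settings change which regions or calls can count; the cause of the other changes was not tested.

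The number of regions past limma's threshold was 0 under each alternative run. Replicate numbers were not taken as pairs in the main comparison, since no label gives a pairing. Deviations of same-numbered libraries correlated by -0.0846, -0.014 and 0.0297, which with 3 libraries a group does not settle whether they were paired. With the replicate block the smallest adjusted p was 0.998, and by pairs of same-numbered libraries 4 loci were higher in each pair (Slc7a5, Psat1, Shmt2 and Mthfd2) and 1 lower (Asns). With library weights 2 of 32 regions had an unadjusted p under 0.05, against 9.1% of all regions, and without DMSO 1 3 of 32, against 10.2%, the smallest adjusted p being 0.382 and 0.391. Leaving out region 12 of Slc7a5 and region 1 of Cth, an alternative chosen after seeing the data, gave 9.52 points without overlap at Slc7a5 and 8.64 points with overlap at Cth. Lists of peaks carry no read depth, so the limit it sets for weak regions, such as region 12 of Slc7a5 at percentiles of 20.8 to 29.6, could not be measured.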
